A study of Homo sapiens with 16 samples.

Results

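The change in translational efficiency on heat shock was examined in young WI-38 cells, a normal human lung fibroblast line of limited lifespan that was followed here before and after replicative senescence. The efficiency change of a gene was defined as its change in ribosome footprints minus its change in RNA, on the log2 scale. Every gene with enough counts in both assays was kept, which gave 11166 of the 19201 genes listed in both tables. The heat-shocked young cells (passage 24) had been held for 2 h at a temperature printed in the labels as 440C and read here as 44 °C with a lost degree sign, and the control young cells (passage 24) received no heat. Heat-shocked and control senescent cells (passage 36) served only to estimate the spread and for 1 comparison at the end. All cells, controls included, had been starved of serum for 24 h and returned to complete medium for 24 h to synchronise them, so the controls are recently refed cells and not cells in steady growth. Each group had 2 RNA-seq libraries (Illumina TruSeq RNA) and 2 Ribo-seq libraries, in which RNase If digestion leaves the stretches of mRNA covered by ribosomes. The labels do not say whether replicates came from separate cultures, so p-values measure only the spread between these libraries.

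Heat shock slows initiation on most mRNAs while heat shock factor drives the transcription of chaperone genes, and ribosomes are then shared among the mRNAs that can still recruit them. Some mRNAs carry their own control. Ferritin mRNAs have an iron-responsive element (IRE), a hairpin near the 5′ end that is bound by iron regulatory proteins when free iron is low and that then blocks initiation. ATF4-type mRNAs have upstream open reading frames (uORFs) that divert ribosomes until initiation factor eIF2 is phosphorylated, and TOP mRNAs begin with a C and a run of pyrimidines through which mTOR signalling and LARP1 set their use.

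The IRE hairpins of 3 mRNAs are shown because all 3 were called as raised. Each is 30 bases of the 5′ untranslated region (GENCODE release 29, GRCh38), printed 5′ to 3′ with the 6-base loop in capitals, in the order of the efficiency change.
EPAS1: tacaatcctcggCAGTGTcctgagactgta
FTH1: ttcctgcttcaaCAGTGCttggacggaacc
FTL: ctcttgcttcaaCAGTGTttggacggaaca
They lie at chr2:46297479-46297508 on the plus strand (EPAS1), chr11:61967573-61967602 on the minus strand (FTH1) and chr19:48965335-48965364 on the plus strand (FTL), each within a single exon. The window shown for EPAS1 starts at base 78 of the transcript, for FTH1 at base 59 and for FTL at base 35.

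The starts of 5 mRNAs of the pyrimidine type are shown next, because mRNAs with this same kind of start ranged from no detectable change to one of the deepest falls. Each line holds 10 bases before and 20 bases from the annotated start (RefSeq, GRCh38.p14), with the unbroken pyrimidine run from the start in capitals.
RPSA: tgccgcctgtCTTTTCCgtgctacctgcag
TPT1: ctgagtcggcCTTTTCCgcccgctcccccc
RPLP1: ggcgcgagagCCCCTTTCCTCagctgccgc
RPS12: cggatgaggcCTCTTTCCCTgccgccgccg
CCNI: ctctcttcccCTCCCTCCCCagccttcccc
They lie at chr3:39406710-39406739 on the plus strand (RPSA), chr13:45341164-45341193 on the minus strand (TPT1), chr15:69452808-69452837 on the plus strand (RPLP1), chr6:132814559-132814588 on the plus strand (RPS12) and chr4:77075970-77075999 on the minus strand (CCNI). A C followed by at least 4 pyrimidines at the start was found in 1429 of all 35116 RefSeq promoters (4.07%) and in 5.69% of the tested genes that had one.

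The 8 young libraries held between 26434514 and 37126871 counts in RNA-seq and between 5356955 and 9104077 counts in Ribo-seq. The fibroblast markers summed to 20300 to 27100 CPM (counts scaled to a fixed library total) in heat-shocked RNA and 20700 to 22600 CPM in control RNA, against at most 110 CPM for the epithelial, 36.9 CPM for the endothelial and 164 CPM for the blood cell markers in any young RNA library, which fits the label; in bulk libraries, fewer cells of a type and less RNA per cell cannot be told apart. The 2 control footprint libraries of young cells were unusually alike. Their counts differed with a chi-square of 1.73 per degree of freedom, against 17.2 to 38.8 for the other footprint pairs and 68.9 to 106 for the RNA pairs. They still differed by more than sampling noise and were kept as 2 samples. With their mean counted as 1 sample, 1 gene was called higher and 4 lower in efficiency, against 4 and 6 with both.

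Few genes passed the test of the efficiency change, and the 8 called with a fold had called footprint changes and no called RNA change. With edgeR's quasi-likelihood test and a Benjamini-Hochberg adjusted p under 0.05 over all 11166 genes, efficiency changed on heat shock for 10 genes (0.0896%), rising for 4 (0.0358%) and falling for 6 (0.0537%). The 4 that rose were the ferritin chains FTH1 and FTL and the transcription factors EPAS1 and ATF5. PABPC1, CCNI, CAMK2N1 and DLG4 fell, together with BOLA2B and NEDD8-MDP1, for which no fold can be given. Before adjustment, 113 genes (1.01%) were higher and 346 (3.1%) lower at an edgeR p under 0.05. In the same fit RNA was called changed for 179 genes (1.6%), higher for 93 (0.833%) and lower for 86 (0.77%), and footprints were called changed for 286 (2.56%), higher for 129 (1.16%) and lower for 157 (1.41%). The median efficiency change of all genes was 0.02, with a 5th percentile of -0.96 and a 95th of 0.69, so the changes are relative to a centre close to 0. Counts carry no measure of total protein synthesis, so a loss of translation shared by all mRNAs would not be seen in these values.

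Medians of RNA and footprint changes are given as a description for classes chosen by those same calls, which fixes the contrast between the classes. The 92 genes with more RNA on heat shock and no group of 3 or fewer counts had a median RNA change of 2.15 and a median footprint change of 2.14. For the 108 genes whose footprints were called lower while their RNA was not, the median footprint change was -1.71 and the median RNA change -0.31. The 83 genes with less RNA had medians of -1.58 in RNA and -1.25 in footprints, and the 56 whose footprints were called higher while their RNA was not had 1.34 in footprints and 0.62 in RNA. Across 11121 genes RNA and footprint changes had a Spearman correlation of 0.499, given as a description, since genes share libraries and are not independent replicates.

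**Figure D1:**
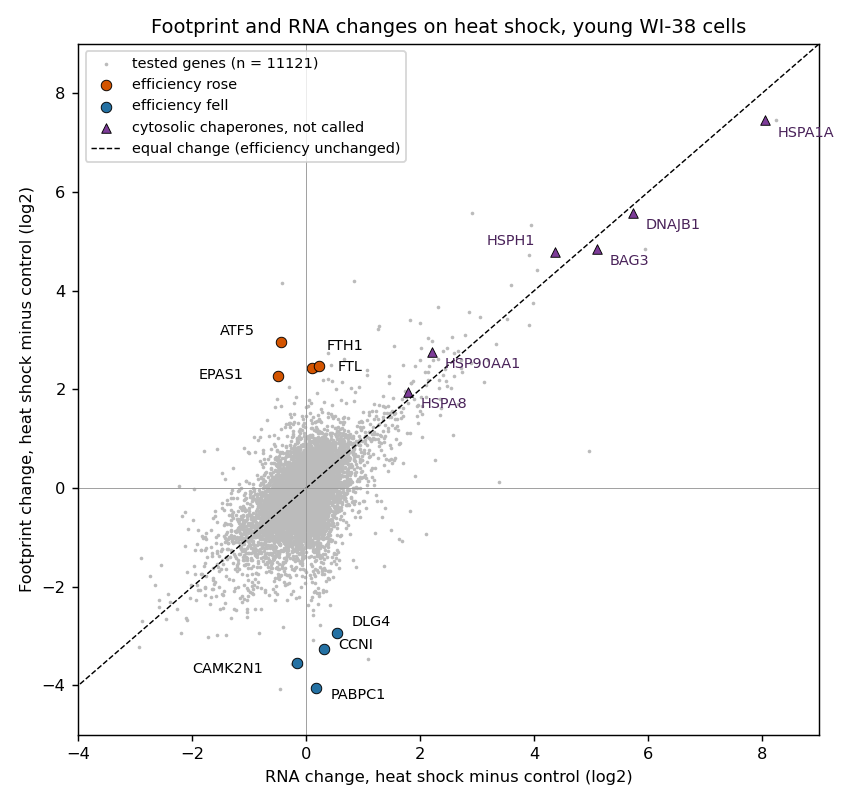
Change in footprints (y axis) against change in RNA (x axis) on heat shock in young cells, both as log2 heat shock minus control, for 11121 genes without a group of 3 or fewer counts. Orange and blue points are the genes whose efficiency was called higher and lower. They lie far above or below the dashed line of equal change, near an RNA change of 0. Purple triangles are HSPA1A, HSPH1, DNAJB1, BAG3, HSPA8 and HSP90AA1, chaperone genes picked for the figure, which lie closer to that line. They do not stand for all chaperones tested. HSPA6, with RNA and footprint changes above 11, lies outside the axes.

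The 5′ IRE mRNAs had the clearest shared response. FTH1, the ferritin heavy chain that oxidises and stores iron, had 1277 and 1168 CPM of footprints in heat-shocked cells, against 218 and 236 CPM in control cells, while its RNA was 2546 and 2236 CPM in heat-shocked cells and 2261 and 2203 CPM in control cells. Both heat shock footprint values lay far above both controls, and the RNA values lay close together. The efficiency of FTH1 rose by 2.33 ± 0.26 on the log2 scale (SE, 2 libraries per group and assay; edgeR adjusted p = 0.00268). It was called under all 23 settings in which it could be tested, with changes between 2.24 and 2.43.

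FTL, the ferritin light chain, had 919 and 971 CPM of footprints in heat-shocked cells and 162 and 176 CPM in control cells, with RNA at 4483 and 4492 CPM in heat-shocked cells and 3641 and 4027 CPM in control cells. The footprint groups were far apart, and the RNA groups were apart by a small margin. Its efficiency rose by 2.25 ± 0.30 (edgeR adjusted p = 0.0059). EPAS1, the hypoxia-inducible factor HIF-2α, had 341 and 237 CPM of footprints in heat-shocked cells and 59.9 and 59.3 CPM in control cells, and its RNA was 273 and 282 CPM in heat-shocked cells and 405 and 381 CPM in control cells. Footprints and RNA of EPAS1 thus differed in opposite directions, although the RNA change of -0.50 ± 0.26 was not called (edgeR adjusted p = 0.648). Its efficiency rose by 2.78 ± 0.38 (edgeR adjusted p = 0.0059). Neither FTL nor EPAS1 was called when either heat shock RNA library or either control footprint library was left out, with edgeR adjusted p of 0.061 and 0.053 without heat shock RNA 1 and 2 for both genes, 0.0828 without control footprint library 1 for both, and 0.0602 (FTL) and 0.0795 (EPAS1) without control footprint library 2. It was 0.0764 for both with the alike pair counted as 1. Their changes stayed between 2.18 and 2.33 (FTL) and between 2.49 and 3.02 (EPAS1).

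Efficiency in a library was taken as the log2 difference of footprint and RNA CPM between libraries of the same replicate number. The labels do not say that these libraries belong together, and the edgeR test did not use this pairing. Another pairing could change the efficiencies per library and every count of genes without overlap given here. Of 6 mRNAs in the list of 5′ IREs, 4 had enough counts to test. Of these, 3 were called higher, beside 0.0358% of all genes. All 4 had both heat shock values above both controls, which was so for 17% of all genes. Their median change was 2.29 beside 0.02 for all genes, and 2.24 to 2.37 under the 23 alternatives. The 4 mRNAs listed with an IRE in the 3′ untranslated region had a median change of 0.07. An IRE there can protect the mRNA from decay. The changes were 0.72 (TFRC, the transferrin receptor), 0.32 (SLC11A2, an iron importer), -0.19 (CDC42BPA) and -0.90 (CDC14A). None of these was called, beside 0.0896% of all genes.

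The hairpin was searched for in all genes with a transcript. A C, 5 paired bases, a loop reading CAGTGN with any last base but G, and the closing strand were found in the 5′ untranslated region of 8 of 10963 genes (0.073%). With 1 unpaired base allowed in the closing strand, the form EPAS1 has, there were 18 (0.164%). The loop letters alone were in 17.7% of genes, and the 1915 genes that had them without a stem had a median efficiency change of -0.01. EPAS1, FTH1 and FTL had the 3 highest changes of the 18. EPAS1 matched only the looser rule and all 3 had been called, so this order is a description and was not tested. The median of the 18 was 0.13, with 13 above 0 and the lowest at -1.02, so the letters of a stem and loop did not by themselves mark a raised mRNA. A match here is a match of letters, searched on the transcript strand, and not a test of binding.

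**Figure D2:**
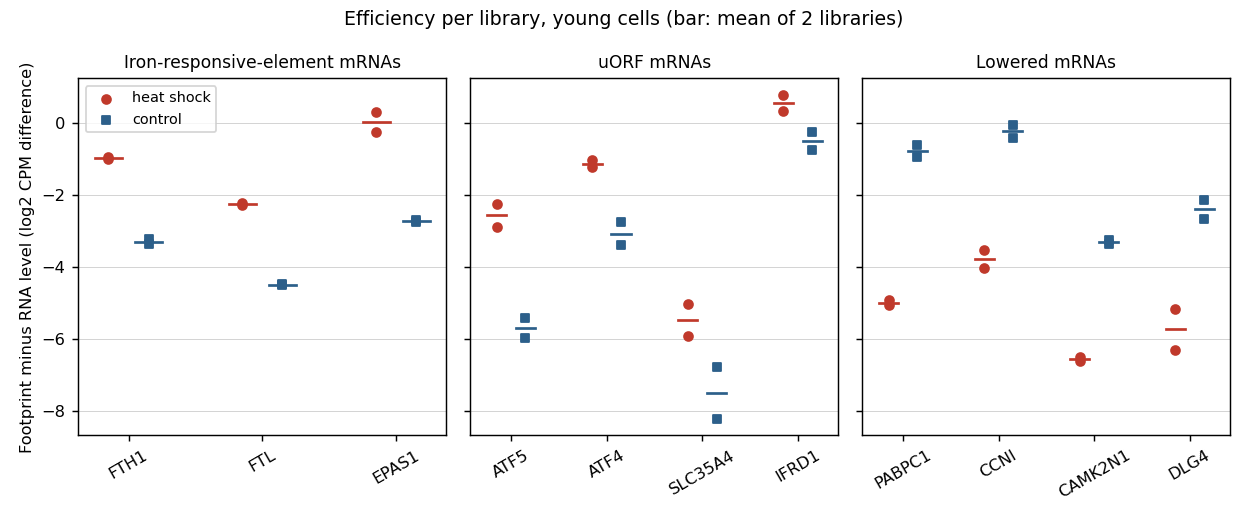
Efficiency in each young library (log2 footprint CPM minus log2 RNA CPM of the library with the same replicate number) for IRE mRNAs, uORF mRNAs and the lowered mRNAs. Red circles are the 2 heat shock values, blue squares the 2 control values and bars their means; for example PABPC1 lies at -5.06 and -4.93 with heat shock and -0.94 and -0.61 without. Levels can be compared within a gene, not between genes.

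Among the uORF mRNAs of the integrated stress response, all 10 tested members had a positive efficiency change. Of these, 1 was called higher, beside 0.0358% of all genes. ATF5, a stress-induced transcription factor, had 2.6 and 4.93 CPM of footprints in heat-shocked cells and 0.352 and 0.602 CPM in control cells, with RNA at 19.8 and 23.6 CPM in heat-shocked cells and 28.8 and 30.3 CPM in control cells. Its footprint groups were apart but rest on 12 and 26 counts in heat-shocked and 3 and 6 counts in control cells. The efficiency of ATF5 rose by 3.40 ± 0.55 (edgeR adjusted p = 0.0338). That call was lost when any young library other than heat shock footprint library 1 was left out, with adjusted p between 0.096 and 0.356, where the changes were 2.85 to 3.85. It was also lost in edgeR with the 8 young libraries alone (adjusted p = 0.0797) and with the alike control footprint pair as 1 sample (0.208), and in limma on log2(TPM + 0.1) (0.0564) and log2(TPM + 1) (0.0807). It was called under 11 of 22 settings.

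ATF4, the central transcription factor of this response, had 221 and 263 CPM of footprints in heat-shocked cells, against 28.1 and 23.5 CPM in control cells, and 519 and 535 CPM of RNA in heat-shocked cells, against 191 and 248 CPM in control cells. All 4 comparisons of heat shock with control values pointed upward in both assays. Its RNA rose by 1.26 ± 0.26 (edgeR adjusted p = 0.0263) and its footprints rose by 3.23 ± 0.29 (edgeR adjusted p = 2.27e-05), and the efficiency change of 1.97 ± 0.38 had an edgeR adjusted p of 0.0935, above the threshold. DESeq2 called it with an adjusted p of 0.000618, and with the 8 young libraries alone edgeR gave 0.0352.

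The other members moved less or rested on few reads. IFRD1, a transcriptional regulator with a uORF, had efficiencies of 0.33 and 0.79 in heat-shocked cells and -0.75 and -0.23 in control cells, a change of 1.08 ± 0.42 that was not called. SLC35A4 had a change of 2.36 ± 0.82, also not called, on 4 and 12 footprint counts in heat-shocked and 5 and 2 in control cells. PPP1R15A, which helps to dephosphorylate eIF2 and so ends the response, rose in RNA by 2.02 ± 0.37 and in footprints by 2.85 ± 0.39 (edgeR adjusted p = 0.013 and 0.00144), while its efficiencies of -0.69 and -2.27 in heat-shocked and -1.89 and -2.35 in control cells overlapped. DDIT3, the transcription factor CHOP, had a change of 0.77 ± 0.51 that was not called. The median over the 10 was 0.80, within 0.68 to 1.07 under the alternatives, and 7 had no overlap between groups, beside 17% of all genes. The sources used here do not say which region of a transcript the counted footprints lay in, so reads in a uORF cannot be told apart from reads in the main frame.

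Upstream ATG codons alone did not go with a positive change. Genes with 3 or more of them in the annotated leader had a median change of -0.05 (2279 genes), and genes with none had 0.05 (5124 genes). ATF4 has 7 in the transcript used, ATF5 has 2 and SLC35A4 has 20. The 26 ATF4 target genes tested, only some of which serve the supply of amino acids and transfer RNAs, had a median efficiency change of -0.03. None was called, beside 0.0896% of all genes.

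Efficiency was called lower for 1 of 12 tested genes in the list of poly(A)-binding proteins and partners, beside 0.0537% of all genes. This gene, PABPC1, coats the mRNA tail and promotes initiation, and had 24.2 and 19.1 CPM of footprints in heat-shocked cells and 370 and 351 CPM in control cells. Its RNA was 809 and 585 CPM in heat-shocked cells and 707 and 534 CPM in control cells, so the RNA groups overlapped while the footprint groups were more than 10-fold apart. The efficiency of PABPC1 fell by 4.22 ± 0.53 on the log2 scale (edgeR adjusted p = 0.00504). It was called under 22 of 23 settings and not without heat shock footprint library 2 (adjusted p = 0.0678), where the change was -4.06.

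PABPC4, a close relative of PABPC1, had 20.8 and 19.1 CPM of footprints in heat-shocked cells, against 91.1 and 82.5 CPM in control cells, and 229 and 236 CPM of RNA in heat-shocked cells, against 202 and 195 CPM in control cells. The footprint groups were apart downward and the RNA groups slightly apart upward. Its footprints fell by 2.12 ± 0.37 (edgeR adjusted p = 0.00673), and the efficiency change of -2.35 ± 0.50 was not called (edgeR adjusted p = 0.179; DESeq2 adjusted p = 0.00124). LARP1, which binds TOP mRNAs, had a change of -0.16 ± 0.35 that was not called. Of the 12 tested genes of the list, 10 had a negative change and 6 had no overlap in that direction, beside 20% of all genes, and the median was -0.26.

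The other lowered genes have no shared function in the lists used. CCNI, cyclin I, had 11.9 and 11.4 CPM of footprints in heat-shocked cells and 112 and 112 CPM in control cells, with RNA at 139 and 188 CPM in heat-shocked cells and 115 and 150 CPM in control cells. Footprints were far below control while RNA overlapped. Its efficiency fell by 3.57 ± 0.48 (edgeR adjusted p = 0.0059), a call lost without control RNA library 1 (adjusted p = 0.0603), heat shock footprint library 1 (0.0527) or 2 (0.0779).

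CAMK2N1, an inhibitor of the kinase CaMKII, had 1.08 and 1.14 CPM of footprints in heat-shocked cells and 12.4 and 13.4 CPM in control cells, with 118 and 114 CPM of RNA in heat-shocked cells and 119 and 138 CPM in control cells. The footprint groups were far apart, although heat shock footprints of 1.08 and 1.14 CPM rest on few counts, and the RNA groups were close together. Its efficiency fell by 3.38 ± 0.43 (edgeR adjusted p = 0.00504), a call lost without heat shock footprint library 2 (adjusted p = 0.0678) and with limma voom (0.08). DLG4, the scaffold protein PSD-95, had 0.865 and 0.379 CPM of footprints in heat-shocked cells and 5.4 and 4.01 CPM in control cells, which is 4 and 2 counts in heat-shocked and 46 and 40 counts in control cells. The efficiency of DLG4 fell by 3.48 ± 0.59 (edgeR adjusted p = 0.0482). That call was lost when any 1 of the 8 young libraries was left out (changes -4.15 to -2.98) and with the alike control footprint pair as 1 sample. It was also lost in edgeR with RLE scaling (adjusted p = 0.0514) and with limma voom (0.246). In limma on log2(TPM + 0.1) the adjusted p was 0.167, and on log2(TPM + 1) it was 0.356 with a change of -1.51. DLG4 was called under 8 of 22 settings.

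BOLA2B and NEDD8-MDP1 passed the test through values of 0 and get no fold. BOLA2B had 0 and 0 RNA counts in control cells and 103 and 82 in heat-shocked cells, with footprints at 131 and 188 counts in heat-shocked and 178 and 209 counts in control cells. It has a near-identical copy in the genome, between which counts may be split differently in each library. NEDD8-MDP1, a readthrough of 2 neighbouring genes, had 0 and 0 footprint counts in heat-shocked cells and 20 and 26 in control cells. In all, 45 tested genes had a young group with 3 or fewer counts.

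Ribosomal protein mRNAs nearly all had negative efficiency changes, from -1.59 to 0.07. None of them was called by edgeR, beside 0.0896% of all genes. Of 79 tested, 78 had a negative efficiency change, and in 62 both heat shock values lay below both controls, which was so for 20% of all genes. The median efficiency was -0.391 and -0.517 in heat-shocked libraries 1 and 2, and 0.056 and -0.022 in control libraries 1 and 2. Both heat shock medians thus lay below both control medians, whereas over all genes the 4 medians lay between -0.032 and -0.003. The median change was -0.44, and -0.58 to -0.40 under the 23 alternatives. Before adjustment, 21 had an unadjusted p under 0.05 and a negative change in edgeR, beside 3.1% of all genes. DESeq2 and limma voom each called RPS20. The 2 parts of the change were small: the median RNA change was 0.25 and the median footprint change -0.20.

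**Figure D3:**
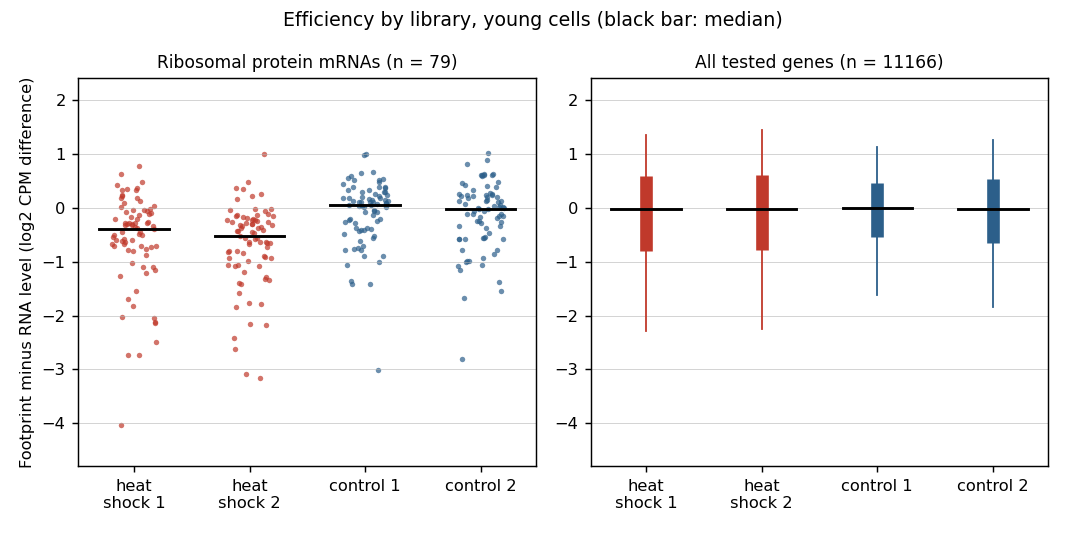
Efficiency (log2 footprint CPM minus log2 RNA CPM) in each young library, for 79 ribosomal protein mRNAs (left, 1 point per gene) and for all 11166 genes (right, thick bar from the 25th to the 75th and thin bar from the 5th to the 95th percentile). Black bars are medians; those of the ribosomal protein mRNAs are -0.391 and -0.517 in heat-shocked and 0.056 and -0.022 in control libraries. RPL36A in heat shock library 1 lies below the axis.

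The size differed between ribosomal proteins. RPS20, a small-subunit protein, had 117 and 146 CPM of footprints in heat-shocked cells and 349 and 333 CPM in control cells, with RNA at 655 and 657 CPM in heat-shocked cells and 535 and 602 CPM in control cells. Footprint groups were apart downward and RNA groups upward. Its footprints fell by 1.38 ± 0.27 (edgeR adjusted p = 0.0135). It was the 1 of 79 ribosomal proteins with called footprints. Footprints were called lower for 1.41% of all genes, so that count says little by itself. The efficiency change of RPS20 was -1.59 ± 0.37 (edgeR adjusted p = 0.274, DESeq2 0.0239, voom 0.0266).

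RPS12, with efficiencies of -2.74 and -3.09 in heat-shocked cells and -1.35 and -1.38 in control cells, had a change of -1.53 ± 0.60. RPLP1, part of the stalk that recruits elongation factors, had -1.19 ± 0.40 and RPL12, at the base of that stalk, had -1.15 ± 0.51. At the other end RPSA, the laminin receptor and small-subunit protein, had efficiencies of -0.70 and -1.08 in heat-shocked cells and -0.90 and -0.98 in control cells, which overlap, and a change of 0.07 ± 0.33. None of these 4 was called.

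The single genes below give no test of the pyrimidine start, and RPSA, TPT1 and RPS12 were chosen after their values were seen. The run has 7 bases in RPSA, which did not differ detectably, and also in TPT1, the tumour protein whose mRNA is a classical TOP mRNA, which had a change of -1.01 ± 0.39 (not called). It has 10 in RPS12 and in CCNI, whose changes were -1.53 and -3.57. Over the 522 tested genes with such a start the median change was -0.06, and 144 of the 522 had no overlap downward. Among 8694 genes with another start the median was 0.02, and 1688 of the 8694 had no overlap downward. The 522 include ribosomal proteins such as RPS12 and RPLP1, and 62 of all 79 ribosomal proteins tested had no overlap downward. Whether the other genes with such a start differ without that family was not tested. For ribosomal proteins a promoter sequence was at hand for 63 of 79 (79.7%), under the 80% needed, so no comparison within that family was made.

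Among 17 TOP mRNAs outside the ribosome, 13 had a negative change and 1, PABPC1, was called lower, beside 0.0537% of all genes. EEF1A1, which brings transfer RNAs to the ribosome, had a change of -0.35 ± 0.39, EEF2, which moves the ribosome along, had -0.33 ± 0.42, and NPM1, a nucleolar chaperone, had 0.31 ± 0.48. The median was -0.17, and it turned to 0.03 under 1 alternative. Of 40 initiation factors, 29 had a positive change, with a median of 0.11. EIF4EBP2, which represses the cap-binding factor eIF4E, stood apart from these with efficiencies of -3.998 and -3.93 in heat-shocked cells and -2.54 and -2.82 in control cells, a change of -1.29 ± 0.39 that was not called. No initiation factor was called, beside 0.0896% of all genes.

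Many chaperone mRNAs were induced. Of 44 cytosolic chaperones and co-chaperones tested, 21 were called higher in RNA, beside 0.833% of all genes, and 22 in footprints, beside 1.16%. None was called in efficiency, beside 0.0896% of all genes, so that count says little by itself. The median efficiency change was -0.05, with a range from -1.16 (BAG1) to 1.39. Both heat shock values lay below both controls for 10 of the 44 and above for 4, beside 20% and 17% of all genes. Before adjustment, 2 had an edgeR p under 0.05, both with a negative change. DNAJB1, the J-domain partner of HSP70, had 3433 and 6172 CPM of footprints in heat-shocked cells and 102 and 98.4 CPM in control cells, with RNA at 6459 and 7931 CPM in heat-shocked cells and 118 and 151 CPM in control cells. Both assays were far apart in the same direction. Its footprints rose by 5.58 ± 0.32 and its RNA by 5.74 ± 0.32, and the efficiency change was -0.16 ± 0.37. HSPH1, an HSP110 exchange factor, had an efficiency change of 0.42 ± 0.67, and HSPA8, the constitutive HSC70, had 0.17 ± 0.29. The inducible HSP70 genes HSPA1A and HSPA1B are nearly identical and were summed: footprints were 26130 and 26140 CPM in heat-shocked cells and 152 and 146 CPM in control cells, RNA was 30140 and 40170 CPM in heat-shocked cells and 113 and 136 CPM in control cells, and the efficiency change of the sum was -0.68, with no test made on the sum.

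ZFAND2A and XBP1, both chosen after their values were seen, had called RNA changes and positive efficiency changes that were not called. ZFAND2A, a proteasome-associated protein induced by arsenite and heat, had 135 and 124 CPM of footprints in heat-shocked cells and 2.35 and 3.01 CPM in control cells, with RNA at 151 and 118 CPM in heat-shocked cells and 17 and 18.6 CPM in control cells. Both assays were far apart, and the footprints further. Its RNA rose by 2.92 ± 0.39 (edgeR adjusted p = 0.00107). The efficiency change was 2.66 ± 0.56 (edgeR adjusted p = 0.179; DESeq2 0.00272). XBP1, which turns on ER folding genes once its mRNA is spliced by IRE1, had efficiencies of -0.05 and 0.12 in heat-shocked cells and -0.996 and -1.40 in control cells, which do not overlap, with an RNA rise of 1.06 ± 0.19 (edgeR adjusted p = 0.0114) and an efficiency change of 1.23 ± 0.27 (edgeR adjusted p = 0.232; DESeq2 0.0022). The 40 genes of ER chaperones and the unfolded protein response had a median of 0.00, its sign differing in 6 of the 23 alternatives.

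None of the 36 extracellular matrix genes tested was called in efficiency, beside 0.0896% of all genes. COL1A1, the main chain of type I collagen, had 1864 and 2343 CPM of footprints in heat-shocked cells and 9052 and 8782 CPM in control cells. Its RNA was 5584 and 10914 CPM in heat-shocked cells and 5663 and 7315 CPM in control cells, so RNA overlapped and footprints did not. Its footprints fell by 2.08 ± 0.43 (edgeR adjusted p = 0.019), and the efficiency change of -2.43 ± 0.59 was not called (edgeR adjusted p = 0.314; DESeq2 0.0208).

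COL1A2, its partner chain, had efficiencies of -0.76 and -1.36 in heat-shocked cells and 0.30 and 0.08 in control cells, a change of -1.26 ± 0.34. COL5A1 had -1.25 ± 0.49 and COL3A1 had -1.09 ± 0.45, both chosen after their values were seen, and none of the 3 was called. FN1, fibronectin, rose in RNA by 1.67 ± 0.26 and in footprints by 1.42 ± 0.26 (edgeR adjusted p = 0.00397 and 0.0101), with an efficiency change of -0.25 ± 0.36. SERPINH1, the collagen chaperone HSP47 and itself a heat shock gene, rose in RNA by 2.33 ± 0.20 and in footprints by 2.02 ± 0.20, with an efficiency change of -0.31 ± 0.28. Over the 36 genes the median was -0.17, 25 were negative and 11 had no overlap downward, beside 20% of all genes.

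Several gene groups sat slightly above the centre. All 19 glycolysis genes had a positive change, with a median of 0.25 and 12 without overlap, beside 17% of all genes. For nucleolar ribosome biogenesis 37 of 39 were positive with a median of 0.31 and 13 without overlap, and for splicing factors of the SR family and their CLK kinases 16 of 18 were positive with a median of 0.33 and 11 without overlap. The medians kept their sign in all 23 alternatives, but their sizes depended on single libraries: they lay between 0.10 and 0.45 for glycolysis, 0.06 and 0.57 for nucleolar genes, and 0.24 and 0.44 for the SR and CLK group. No member of the 3 lists was called, beside 0.0896% of all genes.

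Of 25 targets of NRF2, the regulator of antioxidant defence, 20 had a positive change. FTH1 and FTL, the IRE mRNAs described above, were the 2 called, beside 0.0896% of all genes. TXNRD1, thioredoxin reductase, had efficiencies of 0.92 and 0.32 in heat-shocked cells and -0.35 and -0.25 in control cells, a change of 0.94 ± 0.30 that was not called. HMOX1, heme oxygenase, which frees iron from heme, rose in footprints by 1.48 ± 0.34 (edgeR adjusted p = 0.0321), with an efficiency change of 0.38 ± 0.46. The medians were 0.27 for this list and 0.20 for 28 antioxidant enzymes. Of these enzymes 24 were positive and 11 had no overlap upward, beside 17% of all genes. None of the 28 was called in efficiency, beside 0.0896% of all genes.

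**Figure D4:**
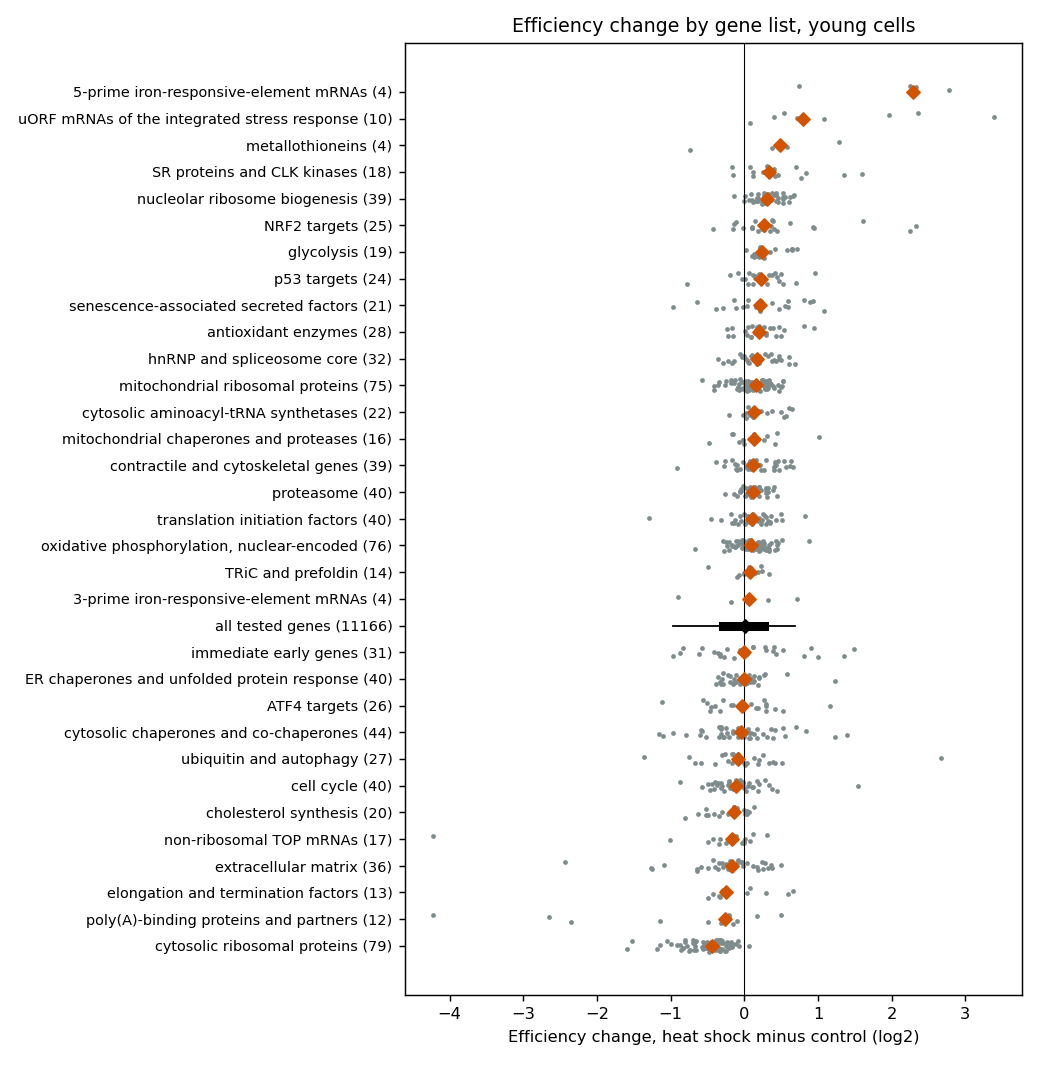
Efficiency change (log2, heat shock minus control, young cells) of each tested member (grey points) of the gene lists, with the number of tested genes in brackets and the median as an orange diamond. The black row is all 11166 tested genes (thick bar from the 25th to the 75th, thin bar from the 5th to the 95th percentile). The 5′ IRE list has the highest median, 2.29, and cytosolic ribosomal proteins the lowest, -0.44.

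Features of the mRNAs went only weakly with the change. The Spearman correlation of the efficiency change with GC content was -0.204 over the whole transcript and -0.182 over the 5′ untranslated region, for 10922 and 10679 genes. Genes in the highest tertile of GC content had a median change of -0.08 and those in the lowest 0.11. Changes computed from the replicate 1 libraries and from the replicate 2 libraries had a Spearman correlation with each other of 0.223, and their correlations with transcript GC content were -0.224 and -0.114. Correlations with coding length and with the number of upstream ATG codons were -0.087 and -0.083.

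Set beside the same contrast in senescent cells, the genes called in young cells moved the same way. All 8 genes called with a fold in young cells were also called, in the same direction, in senescent cells. In senescent cells 26 genes (0.233%) were called higher and 245 (2.19%) lower. The test of the difference between the 2 responses called 1 gene (0.00896%), BOLA2B, which rests on its 0 counts, and 254 genes (2.27%) had an unadjusted p under 0.05 in edgeR. More calls in senescent cells thus do not by themselves show that a given gene responded differently. The 2 contrasts use separate libraries but share the estimate of each gene's spread from the same fit, so a call in both is not independent. The interquartile range of the efficiency changes was 0.555 in young and 0.993 in senescent cells over 11121 genes.

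For FTH1 the change was 2.33 in young and 2.44 in senescent cells, and for EPAS1 it was 2.78 in both. ATF4 had 1.97 in young cells and 3.11 in senescent cells, a difference (senescent minus young) of 1.14 with an edgeR unadjusted p of 0.0499 and adjusted p of 1.00. PABPC1 had -4.22 in young and -5.52 in senescent cells, a difference of -1.30 with an edgeR unadjusted p of 0.1 and adjusted p of 1.00. COL1A2 had -1.26 in young and -2.55 in senescent cells, a difference of -1.29 with an edgeR unadjusted p of 0.017 and adjusted p of 1.00. For the 79 ribosomal proteins the median change was -0.44 in young cells and -0.81 in senescent cells. None was called lower in young cells, beside 0.0537% of all genes, and 9 were in senescent cells, beside 2.19%. The test of the difference called none of the 79, and the difference between the medians was not tested.

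**Figure D5:**
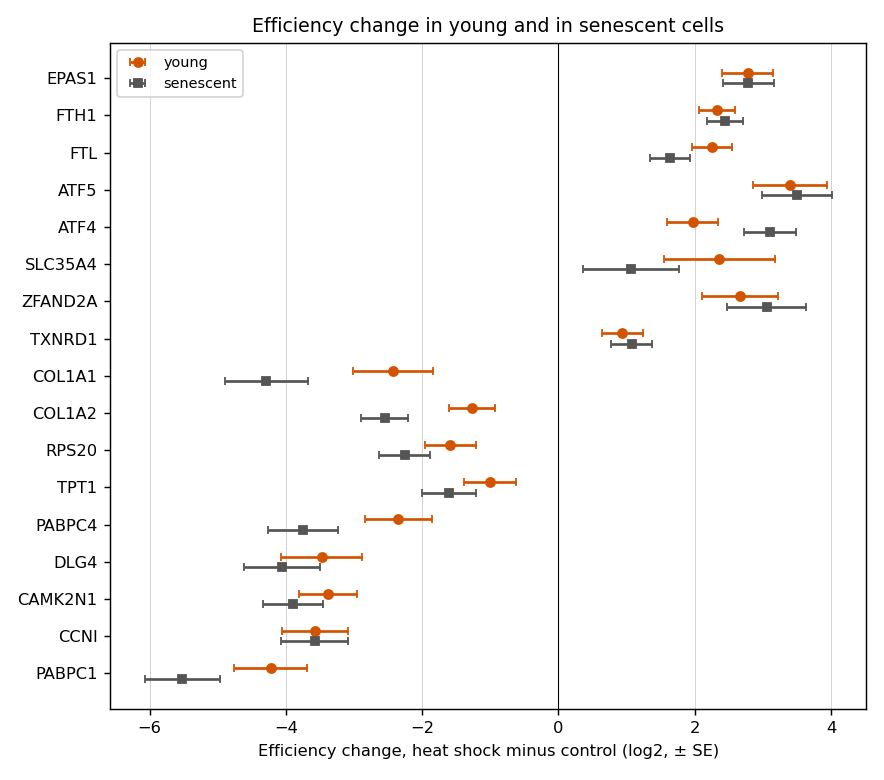
Efficiency change on heat shock (log2, heat shock minus control, with SE bars) of 17 named genes in young cells (orange circles) and in senescent cells (grey squares). All 17 have the same sign in both, and no difference between the 2 was called for any of them.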

How the data were processed

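Gene-level expected counts were deposited by the authors in 1 table for RNA-seq and 1 for Ribo-seq, with TPM (length-scaled transcript abundance) tables deposited beside them; STAR, RSEM, Bowtie2 and hg19 are listed per the submitters' processing notes, without versions or roles. Expected counts were rounded to whole numbers. All 16 libraries were fitted in edgeR 4.0.16 (R 4.3.3) with 1 mean for each of 8 groups, TMM scaling and edgeR's expression filter passed in each assay, which left 8 residual degrees of freedom. The efficiency change was tested as the interaction of assay and heat shock in young cells with the quasi-likelihood F test and adjusted by Benjamini-Hochberg over 11166 genes at 0.05. SEs were derived from the fold change and F. CPM values are TMM-normalised, except the summed cell type markers, which were scaled to library totals alone. Log2 efficiencies per library used a prior count of 2. The deposited TPM entered only as an alternative.

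Genes named are those called with at least 10 CPM in both assays, up to 4 called (or 2 most abundant) members of each list, a fixed panel, and others chosen after their values were seen (among them IFRD1, SLC35A4, PABPC4, COL3A1, COL5A1, ZFAND2A, XBP1, TXNRD1, EIF4EBP2, LARP1 and single ribosomal proteins). Some results are not reported here. Members and lists were chosen with earlier results of these data known. All 22 noncoding RNAs listed were too low in one assay to test. Hairpins and leaders were read from GENCODE release 29 for 98.2% of tested genes, and promoters from RefSeq for 82.8%. On simulated data of 11057 genes, 61 of 100 genes with a 4-fold and 9 of 99 with a 2-fold efficiency change were called, with 1 false call among 10858. The simulated spread followed expression level alone. It held no spread particular to a gene, no deviations shared by same-numbered libraries and no unusually alike pair. These rates need not hold for the real data.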

Additional observations from a re-analysis of the deposited data

Results flagged for a closer look

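The efficiency response of BOLA2B differed between senescent and young cells in the test of the difference itself (edgeR adjusted p = 0.0266), which rests on 0 and 0 RNA counts in young control cells. GAPDH, a glycolytic enzyme, had both heat shock efficiencies above both controls in young cells and both below in senescent cells; the difference in its change, senescent minus young, was -0.09, and this difference was not called (edgeR unadjusted p = 0.801, adjusted p = 1.00). The median efficiency of the ER chaperones and unfolded protein response genes was 0.263 and 0.228 in heat-shocked young libraries against 0.27 and 0.27 in control young libraries, and 0.506 and 0.382 in heat-shocked senescent libraries against 0.244 and 0.266 in control senescent libraries. The median difference in change, senescent minus young, was 0.0829, and it was not tested.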

How the results depend on the processing

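The counts of genes called were small and depended on the settings. Against 4 higher and 6 lower, a mean of at least 10 CPM gave 3 and 2, the 8 young libraries alone 5 and 10, removal of the GC trend 5 and 10, DESeq2 14 and 33, and the alike control footprint pair as 1 sample 1 and 4. Leaving out 1 library gave 1 to 4 higher and 2 to 6 lower. RLE or library size scaling, TMM within assay, no low count filter, limma voom and limma on log2 TPM gave 3 to 6 higher and 5 to 8 lower. For the difference between senescent and young cells, 1 gene became 0 with at least 10 CPM, the pair as 1 sample, voom or log2(TPM + 1), 4 with DESeq2 and 2 with log2(TPM + 0.1), and 0 to 2 without single libraries.

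A replicate block within assay gave 14 higher and 43 lower, with the GC trend also removed 8 and 24, and a replicate block by culture 6 and 6; each of these 3 gave 0 for the difference. The labels do not say what the numbers share. Deviations of same-numbered libraries correlated at 0.576 to 0.784 between RNA groups and at 0.242 between young heat shock footprints and RNA. In each pair with young control footprints the correlation was -0.0389 to 0.0124 (-0.0239 with young heat shock footprints). The numbers were therefore not taken to pair the samples in the reported fit, although the efficiencies per library used them. The block within assay in edgeR also called ATF4 (adjusted p = 0.0088), PABPC4 (0.0108), COL1A1 (0.00475), COL1A2 (0.0333), ZFAND2A (0.0333) and XBP1 (0.045), which the reported edgeR fit did not call. No called gene reversed its direction, and medians of lists near 0 changed sign in places, such as non-ribosomal TOP mRNAs (-0.49 to 0.03). With 2 libraries per group, a 2-fold change was mostly out of reach in the simulation, whose spread was simpler than that of the real data.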
